A study of Homo sapiens with 6 samples.

Results

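The genes described here are RUNX1, RUNX2 and RUNX3, the 3 human Runt-domain transcription factors, and CBFB, their shared partner subunit. They were taken by gene symbol, as 4 of the 23569 genes in an RNA-seq table of TFK1 cells, and they were chosen by their differences in FPKM between the groups, as seen in earlier results of these data. The same contrast therefore chose them, and their differences are given below as descriptions without a test. TFK1 is an established human cholangiocarcinoma cell line, a cancer of the bile duct epithelium. It was carried in 2 forms, negative control cells (oeNC, 3 libraries) and STUB1-overexpressing cells (oeSTUB1, 3 libraries), with no further treatment. STUB1, also called CHIP, is a chaperone-bound E3 ubiquitin ligase, and the study followed its effect on the DNA methylation machinery. By the study's methods, the STUB1 coding sequence was delivered from a lentiviral pHAGE vector and infected cells were kept under puromycin selection, so each form is a selected cell population and the change in STUB1 is long-lasting. A difference between the selected populations and an effect of STUB1 cannot be told apart in these libraries. Nothing in the labels says that the 3 libraries of a group came from separate cultures, and the spread between them may be technical.

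Runt factors bind the DNA motif TGTGGT through their Runt domain. CBFB touches no DNA itself, binds that domain, raises its affinity for DNA and protects the Runt protein from degradation, so each Runt factor works as a heterodimer with CBFB. RUNX1 is known for blood stem cell formation and as a leukaemia gene, RUNX2 for bone and cartilage formation, and RUNX3 for T cells, sensory neurons and as a gene often silenced by promoter methylation in gastrointestinal and biliary cancers. Each of the 3 genes has a distal promoter (P1) and a proximal promoter (P2), which give proteins with different N-termini. STUB1 is itself known as a ligase that ubiquitinates RUNX1 and RUNX2 proteins, which RNA-seq does not measure.

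The promoters are shown because the study turned on promoter methylation and because gene-level values cannot tell P1 from P2. RefSeq windows of 300 bases around a start site on GRCh38.p14 were found for 3 of the 4 genes: P1 and P2 of RUNX2 and of RUNX3, and 1 window of RUNX1. The motif TGTGGT was searched on both strands, and it was found in 4591 of 35116 windows of the same length (13.1%). The upstream RUNX2 window held 4 motifs, a number reached by 5 windows of 35116 (0.0142%), and the upstream RUNX3 window held 2, where 1.31% of windows held 2 or more. The downstream windows of both genes and the window of RUNX1 held 0. RUNX2 P1 and RUNX3 P1 shared a run of 18 bases with 2 motifs in tandem, and no other window of the 35116 held that run. Its place differed: relative to the start site, the motifs began at −131 and −123 in RUNX3 P1, upstream of it. In RUNX2 P1 they began at 16 and 24, downstream of it. The tandem stretches are printed with the motif, here read on the opposite strand as ACCACA, in capitals.
RUNX3 P1 tandem, chr1:24965120-24965147, minus strand: ccctcaACCACAgaACCACAaggccagg
RUNX2 P1 tandem, chr6:45328340-45328367, plus strand: caaacaACCACAgaACCACAagtgcggt
A motif match is a description of these letters and not a bound site.

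The same windows differed in CpG content, the dinucleotide that carries DNA methylation. RUNX2 P1 held 2 CpG in 300 bases, a number that placed it at the 11.0 percentile of all windows, whereas RUNX2 P2 held 39 (91.3 percentile). RUNX3 P1 held 15 CpG (51.1 percentile), RUNX3 P2 held 38 (90.1 percentile) and the RUNX1 window held 40 (92.4 percentile). The first 28 bases of both RUNX2 windows show the contrast, with each CpG in capitals.
RUNX2 P1 window start, chr6:45328080-45328107, plus strand: atcctcatgagtcacaaaaattaaaaag
RUNX2 P2 window start, chr6:45422025-45422052, plus strand: CGgCGgcCGcCGCGgaggCGgCGgCGCG
The first stretch held 0 CpG and the second 9. Methylation was not measured in these libraries.

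The libraries held between 33106564 and 36744521 fragments, recovered from the deposited FPKM values (fragments relative to gene model length and library total). STUB1 had 32.9, 33.0 and 30.9 FPKM in oeNC and 61.4, 75.0 and 61.9 FPKM in oeSTUB1. It was higher by 1.03 on the log2(FPKM + 0.1) scale (adjusted p = 0.00064, limma), as the labels state. Over all genes, 2088 of 15353 tested (13.6%) passed an adjusted p under 0.05. Replicate 2 of oeSTUB1 stood apart, with a root mean square log2 distance of 0.265 from its group mean, against 0.172 and 0.161 for the other oeSTUB1 libraries and 0.0958 to 0.125 in oeNC. Its distance followed gene length. Relative to the mean of the other oeSTUB1 libraries, the median log2 value of replicate 2 was higher by 0.39 over 2171 genes with models under 2000 bases and was −0.45 over 1742 genes with models of at least 8000 bases. The corresponding medians for replicate 2 of oeNC were −0.02 and 0.01. The differences of the members are therefore given with and without this library, and after adjusting each library for gene length.

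RUNX2 was nearly silent in oeNC cells and present at a low level in every oeSTUB1 library. It was counted with 2, 1 and 3 fragments in oeNC, or 0.00984, 0.00492 and 0.0139 FPKM. In oeSTUB1 it was counted with 71, 37 and 62 fragments, or 0.352, 0.191 and 0.310 FPKM. The groups did not overlap, and the lowest oeSTUB1 library was replicate 2. Pooled over libraries, 170 fragments stood against 6, a ratio of 29.6 per fragment sequenced with an exact 95% counting interval of 13.3 to 81.7, which covers counting error only. On the log2(FPKM + 0.1) scale the difference was 1.79 with a standard error of 0.26, a size that the pseudocount sets to a large part: it was 0.34 with a pseudocount of 1 and 3.89 with 0.01. It was 1.97 without replicate 2 of oeSTUB1 and 1.81 after length adjustment. RUNX2 passed the filter on low values, a mean of 0.1 FPKM over the 6 libraries, only through its oeSTUB1 values. Even there it stood at the 42.7 percentile of all listed genes by mean FPKM, from the 17.0 percentile in oeNC.

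RUNX1 was expressed in both groups and was higher in oeSTUB1. Its values were 1.11, 1.35 and 1.37 FPKM in oeNC (335, 405 and 435 fragments) and 2.67, 1.65 and 2.28 FPKM in oeSTUB1 (797, 474 and 674 fragments). The groups did not overlap, but replicate 2 of oeSTUB1 lay close to the highest oeNC library. The means were 1.28 ± 0.141 and 2.20 ± 0.513 FPKM (SD, n = 3), a log2 difference of 0.72 with a standard error of 0.19. The RUNX1 gene model spans 8664 bases, in the length class in which replicate 2 of oeSTUB1 was low. Without that library the log2 difference was 0.90, and after length adjustment it was 0.79.

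RUNX3 was the most abundant Runt factor per length in all 6 libraries. It measured 4.58, 4.73 and 5.01 FPKM in oeNC and 4.20, 3.86 and 4.35 FPKM in oeSTUB1. Every oeSTUB1 library lay below every oeNC library, with replicate 2 of oeSTUB1 the lowest. The means were 4.77 ± 0.217 and 4.14 ± 0.25 FPKM (SD, n = 3), a log2 difference of −0.20 with a standard error of 0.095, and RUNX3 was not among the genes called. Its model spans 4903 bases. Without replicate 2 of oeSTUB1 the difference was −0.15, and after length adjustment it was −0.21.

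CBFB, the common partner, was the most abundant of the 4 genes in both groups. It measured 14.0, 13.9 and 14.3 FPKM in oeNC and 16.8, 18.6 and 18.1 FPKM in oeSTUB1, from 1514 to 1939 fragments per library. All oeSTUB1 libraries were higher than all oeNC libraries, and the oeNC libraries lay close together. The means were 14.1 ± 0.190 and 17.8 ± 0.945 FPKM (SD, n = 3), a log2 difference of 0.34 with a standard error of 0.076. With a model of 3134 bases, CBFB was highest in the library in which short genes were high. The log2 difference was 0.31 without replicate 2 of oeSTUB1 and 0.30 after length adjustment.

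**Figure D1:**
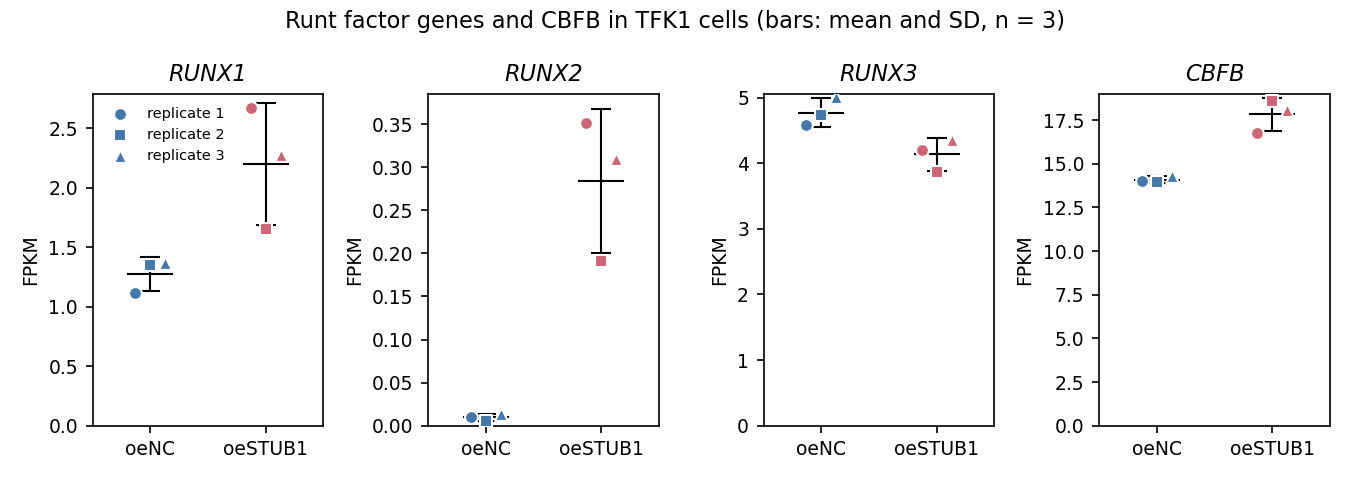
FPKM of RUNX1, RUNX2, RUNX3 and CBFB in each library of oeNC (blue) and oeSTUB1 (red), with marker shapes for replicates 1 to 3 and black bars for the mean and SD of 3 libraries. The scale starts at 0 and differs between panels: RUNX2 reaches only 0.352 FPKM, CBFB 18.6 FPKM, and replicate 2 of oeSTUB1 is the lowest oeSTUB1 library for the 3 RUNX genes and the highest for CBFB.

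By the call used across all genes, 3 of the 4 members were called, all higher in oeSTUB1, beside 13.6% of tested genes called in either direction and 7.01% called higher. None was called lower, beside 6.59% of tested genes. RUNX2 alone also passed an absolute log2 difference of 1, beside 5.2% of tested genes. The groups did not overlap for 4 of 4, beside 38.8% of tested genes. Since the members were chosen with this contrast in view, nothing is read from these counts. The calls of RUNX1 and CBFB were close to the threshold. That of RUNX1 was lost without any 1 of the oeNC libraries and without replicate 1 or 3 of oeSTUB1, with log2 differences between 0.57 and 0.77, and held without replicate 2 of oeSTUB1. That of CBFB was lost without any 1 of the oeNC libraries and without replicate 3 of oeSTUB1, with log2 differences between 0.33 and 0.35.

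The make-up of the Runt transcripts differed between groups, while their sum overlapped only through replicate 2 of oeSTUB1. The summed FPKM of the 3 RUNX genes was 5.70, 6.08 and 6.39 in oeNC and 7.22, 5.71 and 6.94 in oeSTUB1. Replicate 2 of oeSTUB1 lay within the oeNC range, and the other oeSTUB1 libraries lay above every oeNC library. RUNX3 made up 80.3%, 77.8% and 78.4% of that sum in oeNC and 58.2%, 67.7% and 62.7% in oeSTUB1. The share of RUNX1 was 21.0% ± 1.35 in oeNC and 32.9% ± 4.0 in oeSTUB1 (SD, n = 3). The share of RUNX2 was 0.157% ± 0.0699 and 4.23% ± 0.790. For each of these shares the groups did not overlap, and replicate 2 of oeSTUB1 was the oeSTUB1 library closest to oeNC. RUNX3 exceeded RUNX1 3.76 ± 0.312 fold in oeNC and 1.94 ± 0.383 fold in oeSTUB1. These shares follow from the values above and carry no test of their own.

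**Figure D2:**
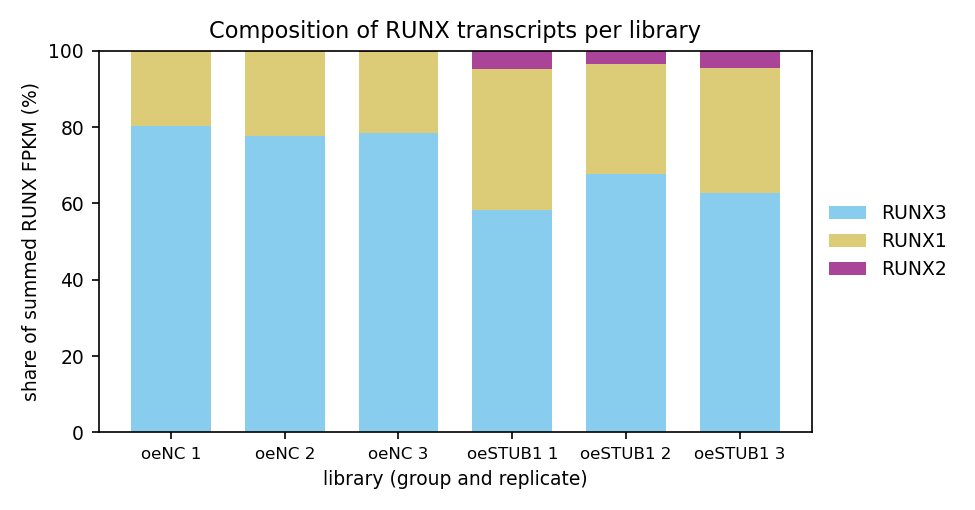
Share of the summed RUNX FPKM (%) held by RUNX3, RUNX1 and RUNX2 in each of the 6 libraries. The RUNX3 band runs from 77.8% to 80.3% in oeNC and from 58.2% to 67.7% in oeSTUB1, and the RUNX2 band is visible only in oeSTUB1, at 3.34% to 4.87%.

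The order of levels per length was CBFB, RUNX3, RUNX1 and RUNX2 in every library of both groups, and no neighbours in that order overlapped. The ratio of CBFB to the summed RUNX FPKM was 2.33 ± 0.116 in oeNC and 2.73 ± 0.481 in oeSTUB1, and the groups overlapped. By mean FPKM, CBFB stood at the 84.5 percentile of listed genes in oeNC and the 86.9 percentile in oeSTUB1. RUNX3 stood at 68.3 and 66.3, and RUNX1 at 53.8 and 59.1.

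Runt factors are normally described in blood cells and bone, so defining markers of other cell types were read in the same libraries. In bulk RNA, a change in the number of cells of a type and a change in RNA per cell cannot be told apart. Of 10 blood markers, 6 passed the filter, none was called higher and 1 was called lower, while MS4A1 had at most 3 fragments in any library. Their summed level was 35.6 to 38 FPKM in oeNC and 28.7 to 29.4 FPKM in oeSTUB1, and most of it came from the macrophage gene CD68, which was called lower (27.2 ± 0.442 and 19.2 ± 0.163 FPKM). The pan-leukocyte gene PTPRC had 0.121 ± 0.0783 and 0.225 ± 0.0824 FPKM and was not called. Of 6 osteoblast markers, BGLAP, IBSP and DMP1 had at most 3 fragments in any library, and the sum (116 to 131 FPKM in oeNC, 81.5 to 103 FPKM in oeSTUB1) came almost wholly from SPP1, which is also made by bile duct cells. The fibroblast markers COL1A2 and DCN and the endothelial markers VWF, KDR, TEK and CLDN5 were likewise at or near 0. Summed fibroblast markers measured 7.21 to 8.93 FPKM in oeNC and 7.66 to 10.7 FPKM in oeSTUB1, and endothelial markers at most 0.275 FPKM. Most of the fibroblast sum came from ACTA2 (6.25 ± 0.330 and 5.68 ± 0.844 FPKM). Of 10 fibroblast markers, 3 passed the filter and none was called. Without overlap between the groups, COL3A1, THY1 and POSTN were higher in oeSTUB1 and LUM was lower, on at most 29 fragments in any library.

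The epithelial label held by most of its markers, with KRT8, KRT18 and KRT7 at high levels in both groups. In oeNC, KRT8 was at 3216 ± 173 FPKM, KRT18 at 3964 ± 111 FPKM and KRT7 at 502 ± 23.0 FPKM (SD, n = 3). KRT19, a defining bile duct keratin, was low, with 0.453 ± 0.0776 FPKM in the control cells and 2.97 ± 0.454 FPKM after STUB1 overexpression. Of 9 biliary markers tested, 1 was called higher and 5 lower in oeSTUB1. CDH1, the epithelial cadherin, was among the latter, at 62.6 ± 2.20 and 30.0 ± 7.53 FPKM. The part of this shift in the values of the Runt factors was not tested.

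Genes that work with the Runt factors were then read from 6 lists of 152 genes in all, drawn up with earlier results of these data known. Of these genes 144 were listed and 113 tested, 12 were called higher and 14 lower in oeSTUB1 (23%, beside 13.6% of all tested genes), and their median log2 fold change was −0.015 beside 0.019 over all tested genes. The lists are described by these counts and not tested as sets.

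Cofactors are proteins that Runt factors bring to their targets, such as the Groucho-type corepressors, histone deacetylases and histone acetyltransferases. Of 23 tested, 2 were called higher and none lower (8.7%; 1 was lower at an unadjusted p under 0.05, and limma-voom gave the same counts), with a median of −0.12. Both that rose were Groucho corepressors, which bind the C-terminal VWRPY motif of Runt factors. TLE1 measured 10.4, 10.1 and 11.0 FPKM in oeNC and 15.1, 14.8 and 14.5 FPKM in oeSTUB1 (log2 fold change 0.49, adjusted p = 0.0053, limma), and the groups were well apart. TLE4 measured 2.31, 2.72 and 2.22 FPKM in oeNC and 4.13, 3.56 and 3.08 FPKM in oeSTUB1 (log2 fold change 0.55, adjusted p = 0.040). Other Groucho members of the list were not called and had negative log2 fold changes: TLE2 at −0.26 (adjusted p = 0.11), TLE3 at −0.24 (adjusted p = 0.25), both with no overlap between the groups, and TLE5 at −0.07 (adjusted p = 0.72). The call of TLE4 was lost without any 1 of the oeNC libraries and without replicate 1 of oeSTUB1 (log2 fold change 0.44 to 0.65 over the 6 fits, adjusted p up to 0.14). The acetyltransferase EP300 had 14.8 ± 1.08 FPKM in oeNC and 12.5 ± 5.62 FPKM in oeSTUB1, with replicate 2 of oeSTUB1 far lower, at 6.02 FPKM, than the other oeSTUB1 libraries at 16.2 and 15.2 FPKM.

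DNA-binding partners and opponents changed in both directions. Of 22 tested, 3 were called higher and 4 lower (31.8%), with a median of −0.06. ETS2, of the ETS family that binds beside Runt factors, rose from 4.72 ± 0.0706 to 7.67 ± 1.11 FPKM (log2 fold change 0.68, adjusted p = 0.0089). VDR, the vitamin D receptor that works with RUNX2 in bone, rose from 0.773 ± 0.0257 to 1.2 ± 0.151 FPKM (0.56, adjusted p = 0.041), and CEBPD, a C/EBP factor, from 24.5 ± 1.96 to 35.8 ± 6.85 FPKM (0.53, adjusted p = 0.044). The AP-1 subunit FOS fell. It measured 13.3, 13.3 and 24.1 FPKM in oeNC and 4.14, 4.42 and 4.44 FPKM in oeSTUB1, a log2 fold change of −1.88 (adjusted p = 0.0015). Replicate 3 of oeNC was well above the other oeNC libraries for FOS, and its partner JUN, which was not called, was also highest there among oeNC libraries (11.3 FPKM, beside 4.09 and 4.48).

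GATA2, a blood and endothelial factor, fell from 1.90 ± 0.140 to 1.21 ± 0.179 FPKM (−0.61, adjusted p = 0.027). LEF1, which works downstream of Wnt signals and can repress RUNX2 activity, was low, with 72, 79 and 107 fragments in oeNC and 7, 1 and 4 in oeSTUB1 (log2 fold change −2.52, adjusted p = 0.00063). LEF1 passed the filter only through its oeNC values, and its log2 fold change was −0.68 with a pseudocount of 1 and −4.17 with 0.01. LEF1 is named after its values were seen. The calls of ETS2 and FOS held in all 6 fits that left out 1 library. Those of GATA2 (adjusted p up to 0.11), VDR (up to 0.15) and CEBPD (up to 0.16) were lost without any 1 of the oeNC libraries. GATA2 and VDR also lost theirs without replicate 1 of oeSTUB1, and VDR and CEBPD without replicate 3 of oeSTUB1.

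Upstream signals of RUNX2 changed in both directions. Of 22 tested, 4 were called higher and 4 lower (36.4%), with a median of 0.035. The bone morphogenetic proteins, which induce RUNX2 in bone precursors, were lower where called, while BMP2 was not called and measured 0.924 ± 0.103 FPKM in oeNC and 1.36 ± 0.183 FPKM in oeSTUB1 (log2 fold change 0.51, adjusted p = 0.068), with no overlap between the groups. BMP7 measured 4.92, 4.72 and 5.22 FPKM in oeNC and 0.751, 0.533 and 0.793 FPKM in oeSTUB1, a log2 fold change of −2.69 (adjusted p = 8.9e-05). BMP4 measured 17.1, 18.5 and 21.9 FPKM in oeNC and 8.96, 11.7 and 11.8 FPKM in oeSTUB1, a log2 fold change of −0.83 (adjusted p = 0.0074). For both genes the groups were far apart. FGFR1, an FGF receptor, fell from 81.3 ± 3.56 to 41.7 ± 3.38 FPKM (−0.96, adjusted p = 0.00049).

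The genes that rose were TGFB2, MSX2 and FGF2. TGFB2, a TGF-beta ligand, measured 4.98, 4.87 and 4.54 FPKM in oeNC and 11.7, 8.47 and 11.2 FPKM in oeSTUB1 (log2 fold change 1.10, adjusted p = 0.0018). MSX2, a BMP-responsive homeobox factor of bone and skull development, rose from 7.39 ± 0.760 to 14.7 ± 1.28 FPKM (0.98, adjusted p = 0.0011). FGF2, a growth factor, rose from 7.0 ± 0.359 to 12.7 ± 1.98 FPKM (0.83, adjusted p = 0.0038). The calls of BMP7, BMP4, FGFR1, TGFB2, MSX2 and FGF2 held in all 6 fits that left out 1 library. BMP6 (log2 fold change −0.63, adjusted p = 0.027) and SMAD1 (0.37, adjusted p = 0.048) completed the calls and are named after their values were seen. BMP6 lost its call without replicate 2 or 3 of oeNC or replicate 1 of oeSTUB1 (adjusted p up to 0.10), and SMAD1 in every such fit but that without replicate 2 of oeSTUB1 (up to 0.17). TGFB1, the main TGF-beta ligand, measured 46.4 ± 2.77 and 46.4 ± 2.80 FPKM (log2 fold change 0.00, adjusted p = 0.998).

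Enzymes that modify Runt factors or drive their turnover were called at a share near that of all tested genes. Of 24 tested, none was called higher and 3 were called lower by limma (12.5%, beside 13.6% of all tested genes). The median over the 24 was 0.067. At an unadjusted p under 0.05, 3 were higher and 4 lower, and limma-voom gave the same counts as limma. SRC, a tyrosine kinase of Runt factors, fell from 61.2 ± 1.36 to 41.3 ± 6.04 FPKM (log2 fold change −0.58, adjusted p = 0.013). The kinases PIM1 (16.9 ± 1.53 to 11.8 ± 1.04 FPKM, −0.51, adjusted p = 0.015) and MAPK3 (24.3 ± 0.998 to 18.1 ± 2.20 FPKM, −0.43, adjusted p = 0.028) also fell. The SMURF-type ligases that act on RUNX2 were not called: SMURF1 had a log2 fold change of −0.28 (adjusted p = 0.28), and SMURF2 measured 4.50 ± 0.325 and 6.30 ± 1.31 FPKM (0.46, adjusted p = 0.091).

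The count of turnover enzymes called higher depended on replicate 2 of oeSTUB1. Without it, 6 of the 24 were called higher (SMURF2, CDK6, CCND1, CCNB1 and HIPK2 among them), and after length adjustment 3 were (SMURF2, CDK6 and CCNB1), while the share of all tested genes called higher was 14.8% and 10.9% in these fits, beside 7.01% with all libraries unadjusted. These genes are named after their values were seen. SRC lost its call without any 1 of the oeNC libraries (adjusted p up to 0.063), PIM1 without replicate 2 or 3 of oeNC (up to 0.066), and MAPK3 in every fit but that without replicate 2 of oeSTUB1 (up to 0.13).

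Among bone and cartilage genes known as RUNX2 targets, most were too low to be tested. Of 24, 21 were listed and 10 passed the filter, of which 1 was called higher and 3 lower (40%), with a median of −0.05. SP7, the bone transcription factor that acts downstream of RUNX2, and the bone genes BGLAP, IBSP and SOST did not pass the filter. The FGF receptors FGFR2 and FGFR3 fell. FGFR2 measured 2.79, 2.64 and 3.10 FPKM in oeNC and 0.998, 0.906 and 1.44 FPKM in oeSTUB1 (log2 fold change −1.30, adjusted p = 0.0031). FGFR3 measured 10.4, 10.8 and 11.6 FPKM in oeNC and 4.35, 3.95 and 5.11 FPKM in oeSTUB1 (−1.28, adjusted p = 0.00050). Groups were well separated for both, and both calls held in all 6 fits that left out 1 library.

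SPP1, osteopontin, fell from 125 ± 8.58 to 89.2 ± 12.1 FPKM (log2 fold change −0.49, adjusted p = 0.026), a call lost in every fit that left out 1 library but that without replicate 2 of oeSTUB1 (adjusted p up to 0.12). SNAI2, which encodes the mesenchymal factor SLUG, was low, with 3, 2 and 4 fragments in oeNC and 38, 39 and 25 in oeSTUB1 (log2 fold change 2.00, adjusted p = 0.0018). It passed the filter only through its oeSTUB1 values, and its log2 fold change was 0.49 with a pseudocount of 1 and 3.27 with 0.01. SNAI2 is named after its values were seen. The type I collagen COL1A1 measured 1.62 ± 0.480 and 2.81 ± 0.876 FPKM and was not called.

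Known targets of RUNX1 or RUNX3 were mostly blood cell genes, and 12 of 22 listed genes passed the filter. Of these, 2 were called higher and none lower by limma (16.7%; 2 were lower at an unadjusted p under 0.05, and limma-voom gave the same counts), with a median of 0.034. SOX4, a transcription factor of progenitor cells, measured 8.13, 8.06 and 8.74 FPKM in oeNC and 17.8, 16.1 and 16.1 FPKM in oeSTUB1, a log2 fold change of 1.00 (adjusted p = 0.00038). CDKN1A, the cell cycle inhibitor p21, measured 25.7, 26.2 and 24.9 FPKM in oeNC and 33.2, 36.6 and 33.7 FPKM in oeSTUB1, a log2 fold change of 0.43 (adjusted p = 0.0086). The groups were well apart for both. SOX4 kept its call in all 6 fits that left out 1 library, whereas CDKN1A lost it without any 1 of the oeNC libraries (adjusted p up to 0.055). The pro-apoptotic gene BCL2L11 measured 4.48 ± 0.208 and 3.78 ± 0.518 FPKM and was not called.

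Promoter windows of the list genes were searched for the same motif. It was present in 7.1% of 42 cofactor windows, 16.7% of 42 partner windows, 15.2% of 46 upstream windows and 11.1% of 27 turnover windows, beside 13.1% of all windows. In the target lists it was present in 5 of 25 windows for RUNX2 (BGLAP, DMP1, FGFR2, MEPE and SPP1) and 8 of 25 windows for RUNX1 or RUNX3. Among the genes called, ETS2, LEF1, BMP4, FGFR2 and SPP1 had a match. ETS2 was higher in oeSTUB1, and LEF1, BMP4, FGFR2 and SPP1 were lower.

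The members lie on 4 chromosomes. In GENCODE release 29 on GRCh38, RUNX1 spans 34787801 to 36004667 on chromosome 21, minus strand, and RUNX3 spans 24899511 to 24965121 on chromosome 1, minus strand. RUNX2 spans 45328157 to 45664349 on chromosome 6 and CBFB 67029116 to 67101058 on chromosome 16, both on the plus strand. The nearest tested genes, 5 on each side of a member, were read to see whether a wider stretch moved with it. Among the 10 neighbours of RUNX1 none was called, none had an unadjusted p under 0.05 and limma-voom called none either, and their median log2 fold change was 0.09 (range −0.29 to 0.51). The 10 neighbours of RUNX2 had a median of 0.006 (range −0.44 to 0.33), and 1 was called, TNFRSF21, a death receptor, at 0.33 (adjusted p = 0.039).

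The SUPT3H gene, which encodes a subunit of transcription complexes, overlaps the start of RUNX2 on the opposite strand, at 44809317 to 45377953. It measured 0.518, 0.464 and 0.484 FPKM in oeNC and 0.483, 0.617 and 0.419 FPKM in oeSTUB1, a log2 fold change of 0.03 (adjusted p = 0.93), and the groups overlapped. Whether the counting used strand is not given in the sources used here. RUNX3 had 1 of 10 neighbours called, RCAN3AS at −1.27 (adjusted p = 0.026), on 15 or fewer fragments per library, and CBFB had 1 of 10, the glycosyltransferase gene B3GNT9, at 0.93 (adjusted p = 0.011). Over the 40 neighbours 3 were called, beside 13.6% of all tested genes. All 3 calls were lost without replicate 1 of oeNC. The call of B3GNT9 held in the other 5 fits, and those of TNFRSF21 and RCAN3AS only without replicate 2 of oeSTUB1, a fit that called 8 of the 40 and 26.8% of all tested genes. RUNX3-AS1, antisense to RUNX3, had 2 to 17 fragments per library in either group and did not pass the filter.

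**Figure D3:**
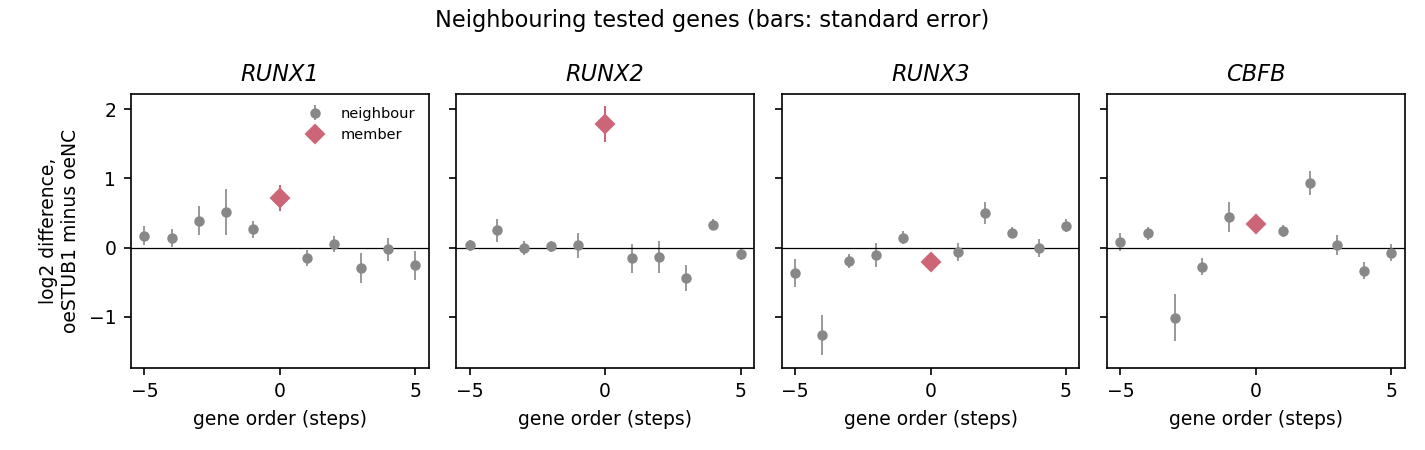
Log2 difference (oeSTUB1 minus oeNC) of each member (red diamond, step 0) and of the 5 nearest tested genes on each side in gene order (grey points), with bars for the standard error. RUNX2 stands at 1.79 among neighbours between −0.44 and 0.33, while RUNX3 and CBFB lie within the range of their neighbours.

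For each member, the genes most alike in profile over the 6 libraries were found by the root mean square difference of log2(FPKM + 0.1) values, each gene set to its own oeNC mean, among genes whose mean reached 1 FPKM. The 5 nearest to RUNX1 of 11374 were FOSL2, NRP2, NECTIN3, PRICKLE2 and TMC5, at distances of 0.096 to 0.11. FOSL2, an AP-1 subunit, measured 14.2, 15.1 and 15.5 FPKM in oeNC and 26.6, 19.7 and 24.9 FPKM in oeSTUB1, with the same dip in replicate 2 of oeSTUB1 as RUNX1. The 5 nearest to RUNX2 were KDM5D, CD38, USP9Y, SFMBT2 and NNT, at 0.13 to 0.18, all more abundant than RUNX2. This likeness holds on the log2(FPKM + 0.1) scale, on which low values are drawn together. The ratio of oeSTUB1 to oeNC mean FPKM was 29.7 for RUNX2. It was 4.29 for KDM5D, 3.4 for CD38, 4.54 for USP9Y, 3.32 for SFMBT2 and 4.49 for NNT. NNT, the mitochondrial transhydrogenase, measured 0.460, 0.591 and 0.549 FPKM in oeNC and 2.58, 1.95 and 2.66 FPKM in oeSTUB1. The 5 nearest to RUNX3 were HPS4, BCL2L13, COX1, SETDB1 and TRPC1, at 0.022 to 0.028. The 5 nearest to CBFB were CNDP2, TUBD1, KIFBP, NXF1 and DTD2, at 0.023 to 0.037. These genes were picked for their likeness, which is given without a test. Whether they share a cause with the member was not tested, and a difference between the selected populations cannot be told apart from an effect of STUB1.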

How the data were processed

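RNA-seq of 6 TFK1 libraries was analysed. The authors deposited FPKM values for 23569 genes by symbol. The submitters' processing notes name fastp 0.20.1, HISAT2 2.1.0, HTSeq 0.11.2, R 3.2.0, DESeq2 1.22.2 and GRCh38.p13, while the gene annotation and the strand setting are not given in the sources used here. Whole fragments, gene lengths and library totals were recovered from the FPKM values (recomputed FPKM differed by at most 4.9e-06). A recovered length is the smallest that gives whole fragments, so a fragment number may understate the true one by a whole factor. Groups came from the labels. No library was a copy of another (chi-square per degree of freedom between replicates 3.48 to 82.6).

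The test was limma 3.58.1 (R 4.3.3; linear model, moderated with a trend, two-sided). It was run on log2(FPKM + 0.1) over 15353 genes whose mean reached 0.1 FPKM, with Benjamini-Hochberg adjustment and a threshold of 0.05. The fit was tested on simulated data. The members and lists were chosen with earlier results of these data known. Named genes were the members, STUB1, up to 6 called genes per list with the largest change and at least 1 FPKM in the higher group, called neighbours, overlapping genes and the 5 most alike genes. Other genes are given with their values as context. Alternatives changed the pseudocount, the filter, the scaling, the trend, a replicate block, limma-voom on fragments and each library left out. Length adjustment, a lowess curve of each library against gene length, was chosen after seeing the data. Promoter windows were from RefSeq. Protein sequences and a CBFB promoter were not used here. Some genes counted in the lists are not reported here by name or value.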

Additional observations from a re-analysis of the deposited data

How the results depend on the processing

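Of 864 alternative values of 55 results, 718 were classed as the same and 0 reversed direction. A log2 difference that changed in size but kept its call was classed as the same. Counts of genes called are among these results and have no direction to reverse. A count could also change in size and be classed as the same. For example, 741 genes were called higher with the replicate block and 1470 with length adjustment and the replicate block. Both were classed as the same beside 1076. The list genes and neighbours named in the text with a call kept it after length adjustment. The cause of the changes below was not tested. The call of RUNX1 (log2 difference 0.72) was lost with no filter, with no trend and with the replicate block, and that of CBFB (0.337) with no trend and with the replicate block. RUNX2 could not be tested with a filter at a mean of 1 FPKM, and its log2 difference was 4.61 by limma-voom. Of the cofactors, 1 was called higher with no filter, no trend or the replicate block, and 1 lower (TLE2) after length adjustment. Of the partners, 1 was called higher with no filter, and 5 higher and 7 lower after length adjustment (6 and 7 with the replicate block too). Of the turnover enzymes, 1 was called higher (CCNB1) with quantile normalization and 3 after length adjustment with or without the replicate block. Of the RUNX2 targets, 0 were called higher with a filter at 1 FPKM and 2 (COL1A1 and SNAI2) with the replicate block, with or without length adjustment. Of the neighbours, 1 was called with the replicate block. After length adjustment, 1675 genes were called higher and 1645 lower, against 1076 and 1012 without it. RUNX1 and CBFB kept their calls with length adjustment and the replicate block together. Both genes were chosen by this contrast, so nothing is read from calls kept or lost. Replicate numbers did not pair the libraries: same-numbered libraries correlated at −0.149, −0.083 and 0.147 in their deviations from the group means.

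With 1 library left out, the log2 difference ranged from 0.574 to 0.904 for RUNX1, 1.656 to 1.974 for RUNX2, −0.238 to −0.154 for RUNX3 and 0.306 to 0.380 for CBFB. The counts called higher and lower ranged from 474 to 2273 and 453 to 1845 over all genes, 1 to 2 and 0 to 1 of the cofactors, 1 to 5 and 2 to 6 of the partners, 3 to 4 and 3 to 4 of the upstream genes, 0 to 6 and 0 to 3 of the turnover enzymes, 1 to 1 and 2 to 3 of the RUNX2 targets and 1 to 2 and 0 to 0 of the RUNX1 or RUNX3 targets. Of the neighbours, 0 to 8 were called. The difference in share (percentage points) ranged from 9.86 to 13.9 for RUNX1, 3.75 to 4.51 for RUNX2 and −18.4 to −13.6 for RUNX3. Depth limits RUNX2 most, since its oeNC value rests on 6 fragments.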
